A study of Drosophila melanogaster with 12 samples.

Results

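The transcriptome described here is that of the wild type *Drosophila melanogaster* testis, as measured in the 3 wild type mRNA libraries among the 12 libraries of the study. These libraries were chosen by their genotype label, and all 15367 rows of the count table were used, of which 15240 are genes and 127 are transposable elements (TEs). Each library was made from rRNA-depleted total RNA of 300 pairs of testes from flies aged 0 to 2 days. The strain is given only as wild type, and no treatment is listed. The study set wild type testes beside testes depleted of the kinesin Klp10A, but no genotypes are compared here.

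In the *Drosophila* testis, germline stem cells sit at the tip around a somatic hub, and their daughters divide as spermatogonia before they grow as spermatocytes, enter meiosis and elongate into sperm. Most genes of sperm development are transcribed in spermatocytes and their mRNAs are stored for use after meiosis, while a small set is transcribed in spermatids. Somatic cyst cells enclose the germ cells, and a muscle sheath surrounds the organ, which opens into the seminal vesicle and the ducts of the male tract.

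The libraries held 23316483, 20044004 and 19929803 counts in replicates 1, 2 and 3. Of these, 7558673, 5508390 and 8186322 counts fell on protein-coding genes. Levels of protein-coding genes are given below as CPM, the counts of a gene per 1000000 protein-coding counts of the same library. A floor of 3 counts corresponds to 0.397, 0.545 and 0.366 CPM in replicates 1, 2 and 3, and covers counting error only. Replicate 2 stood apart from the other libraries. Where a gene is given by its mean alone, that mean includes replicate 2.

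Protein-coding genes took the smaller part of the counts in every library. Their share was 32.4%, 27.5% and 41.1% of all counts in replicates 1, 2 and 3, or 33.7% ± 6.88 (SD, n = 3). Noncoding gene rows took 57.0%, 59.5% and 45.8%, and TE rows took 10.6%, 12.96% and 13.1%. Noncoding rows were thus the largest class in each library, and replicate 3 had the most protein-coding and the fewest noncoding counts. A further 22 gene rows, with 0.0307% of counts on average, could not be classed. Without replicate 2 the protein-coding share averaged 36.7% and the TE share 11.8%.

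**Figure D1:**
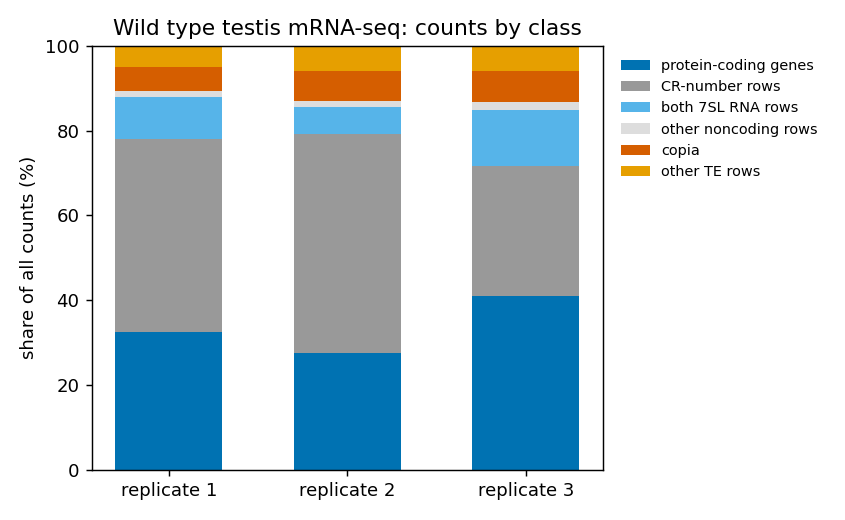
Stacked bars of the share of all counts (percent, vertical axis from 0 to 100) by class in each of the 3 wild type libraries. Protein-coding genes hold 27.5% to 41.1% of counts, and copia alone holds 5.69% to 7.22%.

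The noncoding counts came from few rows. The 10 noncoding rows with the most counts held 53.4%, 53.8% and 42.1% of all counts in replicates 1, 2 and 3. Rows named in the count table by a CR number alone, some of which RefSeq annotates, held 45.7%, 51.6% and 30.6%. The largest was CR41602, annotated by RefSeq as an rRNA pseudogene, with 14.3%, 17.1% and 8.51% of counts. Together the 5 rows annotated as rRNA pseudogenes held 23.1%, 26.4% and 14.6%, although the RNA had been depleted of rRNA before library preparation. CR40677, CR41609 and CR40741 belong to this class, and their mean shares were 4.41%, 1.85% and 1.83%. CR40560, CR40679, CR40546 and CR40766 had mean shares of 6.23%, 4.88%, 3.95% and 3.45%. These 4 rows had no match in the RefSeq table, and no role is given to them here.

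The RNA of the signal recognition particle, which directs new secreted proteins to the endoplasmic reticulum, was the next most counted. Its 2 rows, 7SLRNA:CR32864 and 7SLRNA:CR42652, had nearly equal counts, with 1148907 and 1148881 in replicate 1, 642791 and 642764 in replicate 2, and 1327998 and 1327959 in replicate 3. Reads shared by such copies can be split between them in the counting, so only their sum can be read, and it was 9.85%, 6.41% and 13.3% of all counts. Replicate 2 was the lowest of the libraries for 7SL RNA and the highest for the sum of the rRNA pseudogenes. Among these pseudogenes, CR40677 was highest in replicate 1, with 5.57%, 4.16% and 3.50% of counts in replicates 1, 2 and 3.

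Other noncoding RNAs with known roles took small shares. Spliceosomal and other snRNA rows together held 0.764%, 0.865% and 1.06% of counts, led by the pair snRNA:U1:95Ca and snRNA:U1:95Cb with 42404 and 42403 counts in replicate 1. The snoRNA rows, which guide the modification of rRNA, held 0.251%, 0.277% and 0.391%. Among the long noncoding RNAs, Hsromega, a nuclear RNA of the heat shock response, had 23261, 8093 and 18644 counts. RNaseMRP:RNA, the RNA of an rRNA-processing enzyme, went the other way, with 9454, 24682 and 10304 counts. The dosage compensation RNA roX1 varied little, with 0.0210%, 0.0204% and 0.0228% of all counts. Replicate 2 was thus the lowest for Hsromega and the highest for RNaseMRP:RNA, while the share of roX1 in all counts was alike in the libraries. A share of all counts depends on the other noncoding rows, so the likeness of roX1 holds for that scale only.

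All 127 TE rows end in the suffix LTR, so the suffix does not separate TE classes. By family, 60 rows are LTR retrotransposons, 39 are non-LTR retrotransposons, 23 are DNA transposons and 5 are satellite or *Stellate* repeats. LTR retrotransposons, which copy themselves through an RNA intermediate as retroviruses do, held 86.7%, 86.3% and 87.2% of TE counts in replicates 1, 2 and 3. Non-LTR retrotransposons held 11.4%, 11.0% and 10.9%, and DNA transposons held 1.10%, 2.16% and 1.02%. The order of these classes was the same in every library.

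The LTR retrotransposon copia held most of the TE counts. It had 1326472, 1417155 and 1439496 counts, which is 53.9%, 54.6% and 55.2% of TE counts, with a coefficient of variation (CV, SD over mean) of 1.22%. The next family, 297, had 5.09%, 5.01% and 3.74% of TE counts. They were followed by R1A1_element, a retrotransposon that inserts into rDNA, with a mean of 3.21%, and by Quasimodo (2.92%), jockey (2.70%), GATE (2.22%), mdg1 (2.11%), 1731 (1.89%), opus (1.66%) and Rt1b (1.27%). The 10 leading families held 76.2%, 78.9% and 76.4% of TE counts. The shares of copia in TE counts were close to each other, but copia makes up most of that base, so the likeness holds for that scale only. Per 100 protein-coding counts there were 17.5, 25.7 and 17.6 copia counts in replicates 1, 2 and 3. Quasimodo was highest in replicate 2 (120866 counts, against 48956 and 54932) and jockey was lowest there (47418 counts, against 80647 and 78263).

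Against protein-coding counts, TE counts were higher in replicate 2. There were 32.6, 47.1 and 31.8 TE counts per 100 protein-coding counts in replicates 1, 2 and 3. The DNA transposon FB had 3955, 33798 and 3725 counts and thus the highest CV of the TE rows. At the other end, 15 TE rows had a mean under 100 counts, and 1 row, Helitron, was at 0 in every library.

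**Figure D2:**
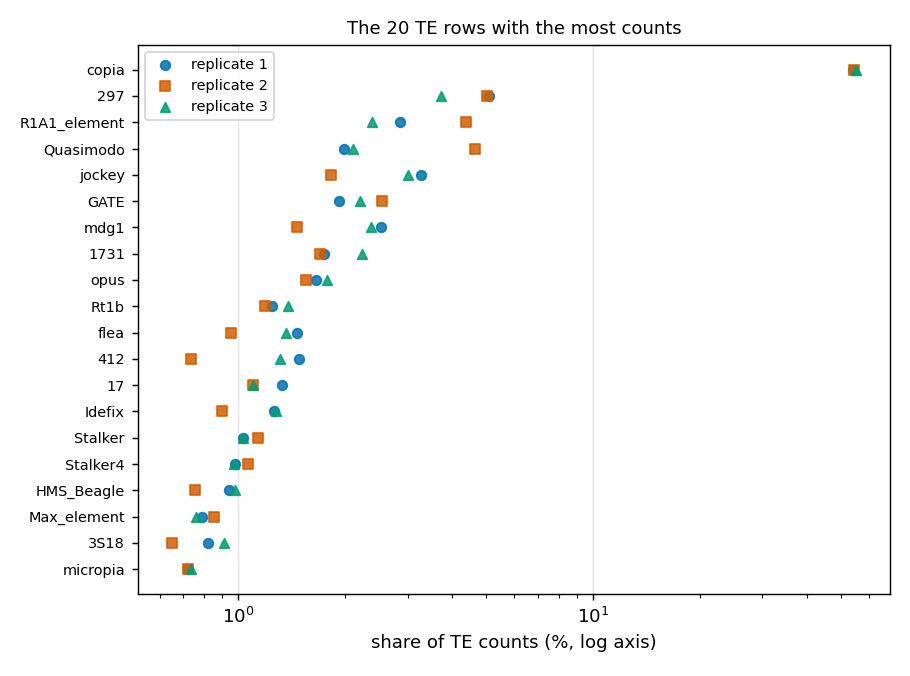
Share of TE counts (percent, log axis) for the 20 TE rows with the most counts, with 1 point per wild type library. The points of copia lie at 53.9% to 55.2% and those of 297, next in order, at 3.74% to 5.09%.

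Most annotated protein-coding genes gave counts in the testis. Of 13807 such genes, 9824 (71.2%) had at least 1 CPM in every library when all counts were the base, 4579 had at least 10 CPM and 378 at least 100 CPM. On the scale of protein-coding counts, 11053 (80.1%) had at least 1 CPM, 7750 (56.1%) had at least 10 CPM and 61 had at least 1000 CPM in every library. Another 530 genes (3.84%) were at 0 counts in all libraries. The median gene had 17.2 CPM, and the 10th and 90th percentiles were 0.243 and 160.4 CPM.

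The protein-coding counts were spread over many genes. The 10 genes with the most counts held 8.54%, 7.94% and 8.32% of protein-coding counts in replicates 1, 2 and 3, and the top 100 held 23.2%, 22.5% and 23.2%. It took 658, 680 and 666 genes to reach 50% of the counts. These totals were alike in the libraries, but the genes behind them were partly different, since 12 genes were among the top 20 and 64 among the top 100 of every library.

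The gene with the most protein-coding counts was Ubi-p63E, which encodes polyubiquitin. It had 24451, 18106 and 26409 CPM in replicates 1, 2 and 3 and was first in each. The mucin gene Muc14A followed with 17205, 5313 and 12412 CPM, and the translation elongation factor gene Ef1alpha48D with 5768, 15108 and 7577 CPM. The order after the first gene therefore depended on the library, with Muc14A second in replicates 1 and 3 and Ef1alpha48D second in replicate 2. A share of counts grows with transcript length, so this order is one of counts and not of transcript number.

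The other genes of the top 20 by counts fell into a few kinds. Sperm leucyl aminopeptidases, abundant proteins of sperm mitochondria, were represented by S-Lap1 (mean 5413 CPM), loopin-1 (3868 CPM), S-Lap7 (3586 CPM) and S-Lap2 (2524 CPM). Chaperones were represented by Hsc70-4, with 1974, 4289 and 2547 CPM, and Hsp83 (2828 CPM). The elongation factor gene Ef2b had 2485, 6939 and 3324 CPM. Acp36DE (3946 CPM) encodes a seminal fluid protein needed for sperm storage, and Msp-300 (3615 CPM) a giant protein that links nuclei to the cytoskeleton. Arc1, which encodes a capsid-forming protein related to retrotransposon Gag, had 2563, 9778 and 3563 CPM. Met75Ca and Met75Cb had the same CPM in every library, with 2358, 1930.3 and 3704, so only their sum can be read. Ef2b, Hsc70-4 and Arc1 were all highest in replicate 2, as was CG5162, with 1962, 5163 and 2625 CPM. CG4836, CG18628, CG17097 and CG31872 had means of 7044, 5942, 3958 and 2666 CPM. Of the 20 genes, 17 were also in the top 20 without replicate 2.

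**Figure D3:**
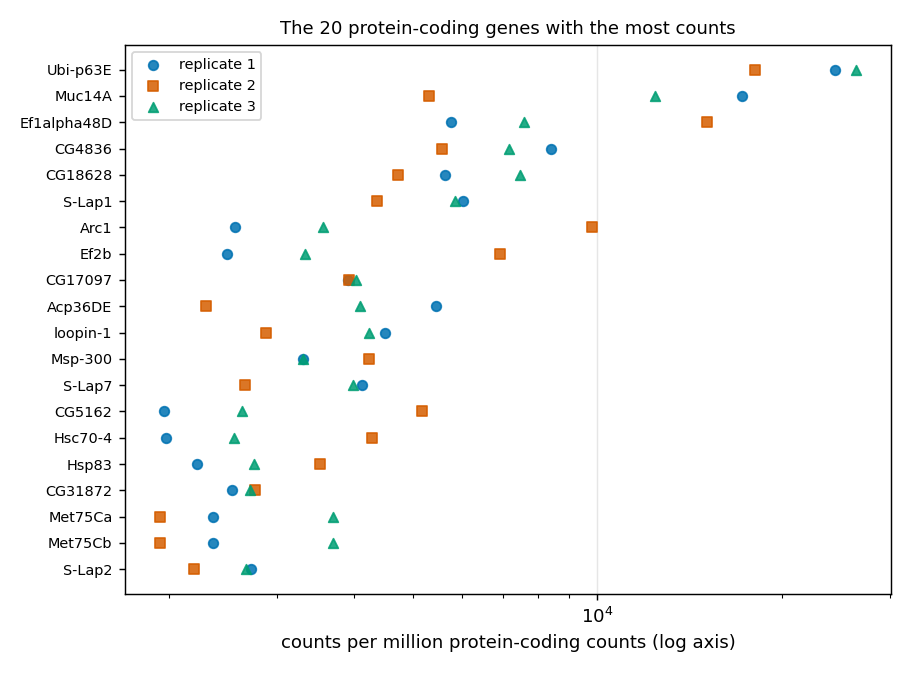
CPM (log axis) of the 20 protein-coding genes with the most counts, with 1 point per wild type library. For Ef1alpha48D, Arc1, Ef2b and CG5162 the replicate 2 point lies to the right of the others, and for Muc14A and Acp36DE it lies to the left.

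The order of genes was different per kilobase of gene span. The RefSeq table gives the span of a gene with its introns and no exon length, so this scale understates genes with long introns. The leading gene was CG18628, with 14189.6, 11903 and 18807 CPM per kilobase, followed by Met75Cb (mean 11055) and Met75Ca (mean 11009). Mst57Db and Mst57Da, which encode small accessory gland peptides, had means of 9685 and 3657 CPM per kilobase, and Dup99B, a peptide of the ejaculatory duct that acts on mated females, had 4233. Ubi-p63E had 5856 CPM per kilobase and ranked 5. Acp98AB and Acp54A1, whose names mark accessory gland proteins, were also in this group, with 2029 and 1897 CPM per kilobase, as was Mst84Dc, a sperm tail protein gene, with 1861. The remaining genes of the top 20 on this scale were CG42481, CG43147, S-Lap1, CG31226, Arc1, Ef1alpha48D, CG9029, CG12699, loopin-1 and Acp53C14b, with means of 1780 to 4417 CPM per kilobase. Only 8 of the top 20 by counts were also in the top 20 per kilobase of span.

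Sperm tail, sperm chromatin and sperm aminopeptidase genes held more counts than the listed genes of the early germline. The 13 genes of germline stem cells and spermatogonia summed to 412, 418 and 443 CPM in replicates 1, 2 and 3. Here chinmo and Stat92E, both needed for stem cell maintenance, had means of 117 and 78.6 CPM, and bgcn, a partner of the differentiation factor bam, had 83.0 CPM. The differentiation factor bam itself had 24, 16 and 26 counts, and the germline helicase vas had 89, 106 and 82 counts. By contrast, the 17 genes of sperm tail and sperm chromatin summed to 11280.4, 8818 and 9984 CPM, and the 9 sperm leucyl aminopeptidases to 25127, 16706 and 24381 CPM. Both ranges lie above that of the early germline list in every library, whereas the sums of the spermatocyte regulator and Y chromosome lists had lower means than its own (357 and 385 CPM, against 424 CPM). The Y chromosome list overlapped it, with 433 CPM in replicate 1. These sums are shares of the RNA of whole testes, in which fewer cells of a type and less RNA per cell cannot be told apart.

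All 17 sperm tail and chromatin genes had at least 10 CPM in every library, as did 56.1% of all protein-coding genes. Mst77F, which replaces histones in the sperm nucleus, led with 1374, 1012 and 1175 CPM, followed by the tail protein genes Mst87F (mean 1115 CPM) and Mst98Ca (mean 1000 CPM). Mst35Ba and Mst35Bb, the protamine genes, had means of 206 and 263 CPM.

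The 19 comet and cup genes, the set transcribed after meiosis, summed to 6911, 3454 and 6283 CPM. Of that, scpr-C, scpr-A and scpr-B had means of 1291, 1072 and 1060 CPM, and swif and cola had equal counts in each library (919, 391 and 972) and cannot be told apart. Every one of the 19 genes had its lowest value in replicate 2, as did 40.4% of the 10338 protein-coding genes compared below. The equal counts of swif and cola are 1 observation in that tally. Without replicate 2 the sum was 6597 CPM.

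Regulators of the spermatocyte programme had low summed levels. The tMAC and tTAF lists hold testis-specific forms of a chromatin complex and of general transcription factors, and their 10 matched genes summed to 306, 387 and 378 CPM. The near-duplicate genes vis and achi led with means of 98.2 and 93.4 CPM, followed by topi with 53.1 CPM, while aly had 108, 88 and 135 counts and tomb 19, 24 and 28. The 7 genes of meiotic entry summed to 2231, 1350.5 and 2033 CPM. There fest, listed under its older symbol CG9975, had 1360.3, 755 and 1152 CPM. Next came bol, a translational regulator of the meiotic divisions, with a mean of 511 CPM, and the mitotic cyclin gene CycB with 116 CPM.

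Genes of the Y chromosome, which are transcribed in spermatocytes and of which some are needed for male fertility, had low summed levels. The 12 genes gave 433, 333 and 389 CPM in replicates 1, 2 and 3, and kl-3, kl-5 and fdy had means of 101, 83.8 and 63.4 CPM. The first 2 encode dynein heavy chains of the sperm axoneme. Pp1-Y1 was at 0 counts in every library, which by counting error alone allows at most 0.397, 0.545 and 0.366 CPM. How fully dm3, to which the reads were aligned, holds the sequences of these 12 genes was not tested. A low count of such a gene therefore sets no bound on its expression. The row for CCY (CG42620) had 15, 11 and 25 counts.

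The 26 genes of the piRNA pathway, which silences TEs in the germline, summed to 990.0, 993 and 1077 CPM, led by the scaffold gene tud (mean 321 CPM), CG5508, the RefSeq symbol of which is mino (200 CPM), and papi (139 CPM). Of the Argonaute genes of the pathway, AGO3 had 333, 163 and 321 counts, aub 109, 88 and 191, and piwi 60, 54 and 71. At the low end zuc had 6, 4 and 4 counts and rhi 10, 13 and 16. The kinesin gene Klp10A had 1458, 802 and 1527 counts, or 175 ± 25.7 CPM (SD, n = 3), and ranked 1262 among protein-coding genes by counts.

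Genes listed as markers of the somatic cells of the testis were counted in every library. Whether their counts came from the testis or from other organs of the male tract was not tested. The hub and cyst list of 10 genes summed to 307.5, 369 and 322 CPM. Its leading genes were the adhesion genes Fas3 (104 CPM) and CadN (77.9 CPM) and the receptor gene Egfr (46.4 CPM). The hub ligand gene upd1, listed as os, had 50, 28 and 40 counts, and the cyst cell factor tj 16, 18 and 19. The 11 muscle genes summed to 3029, 3175 and 3226 CPM, with sls (1048 CPM), Mhc (514 CPM) and bt (420 CPM) at the head. The median CV of members past the filter was 17.7% for the hub and cyst list and 11.7% for the muscle list, against 17.7% over all protein-coding genes.

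Markers of other male tract organs were abundant in libraries labelled testis. All 13 accessory gland protein genes had at least 10 CPM in every library, as did 56.1% of all protein-coding genes, and they summed to 10090.4, 6249.9 and 8240.4 CPM. Acp36DE held the most of this, with 41143, 12635 and 33567 counts, followed by Acp53Ea (704 CPM) and by Acp32CD, with 315, 748 and 372 CPM. The sex peptide gene Acp70A had 3398, 1821 and 3266 counts. The 7 ejaculatory duct and bulb genes summed to 4019, 5779 and 4265 CPM, led by the seminal esterase gene Est-6 with 1701, 2831 and 1962 CPM, Dup99B (1312 CPM) and Gld (787 CPM), a glucose dehydrogenase gene. The accessory gland sum was 0.817 of the sperm tail and chromatin sum. The part of such organs in the dissected tissue was not tested.

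Markers of tissues outside the male tract ranged widely. The 13 ovarian eggshell and yolk genes summed to 16.7, 11.8 and 17.5 CPM, with Cp15 at 87, 46 and 92 counts, Yp3 at 30, 9 and 38, and 5 genes (Cp16, Cp19, Vm26Ab, Vm32E and Vm34Ca) at 0 in every library. Yp1, Yp2, Cp18, Cp36, Cp38 and Vm26Aa had between 0 and 5 counts in each library. The eye list of 10 genes summed to 70.4, 70.3 and 76.1 CPM, nearly all from norpA (39.3 CPM), Arr1 (23.1 CPM) and Rh4 (6.22 CPM), while Rh3 and Arr2 were at 0 and ninaE, the main rhodopsin gene, had 0, 1 and 2 counts. The channel gene trp had 5, 2 and 6 counts, and Rh6 had 1, 2 and 2. The fat body list of 8 genes summed to 180.2, 127 and 154.5 CPM, of which the lipoprotein gene Rfabg held 163, 96.8 and 126 CPM. Lsp2 and Lsp1beta, which encode larval storage proteins, followed with means of 18.6 and 3.39 CPM, Fbp2 had 7, 4 and 7 counts, Lsp1alpha and to had at most 2 counts in any library, and Fbp1 was at 0. The 7 Malpighian tubule genes summed to 312, 325 and 241 CPM, led by the chloride channel gene ClC-a (115 CPM), ZnT35C (76.8 CPM) and the urate oxidase gene Uro (48.4 CPM).

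The midgut list varied the most between libraries. Its sum of 1335, 1207 and 1234.5 CPM hid unequal behaviour of its members. The amylase genes Amy-p and Amy-d held most of it, with 2925, 2893 and 3883 counts and with 2831, 2902 and 3844 counts, and the lysozyme gene LysB had a mean of 75.7 CPM. The digestive protease gene alphaTry had 814, 23 and 300 counts, betaTry 303, 7 and 176, and the maltase gene Mal-A1 915, 44 and 471. Each of these was highest in replicate 1 and lowest in replicate 2, and the median CV over the 12 midgut genes that passed the filter (a mean of at least 1 TMM-scaled CPM) was 94.1%, against 17.7% over all protein-coding genes.

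**Figure D4:**
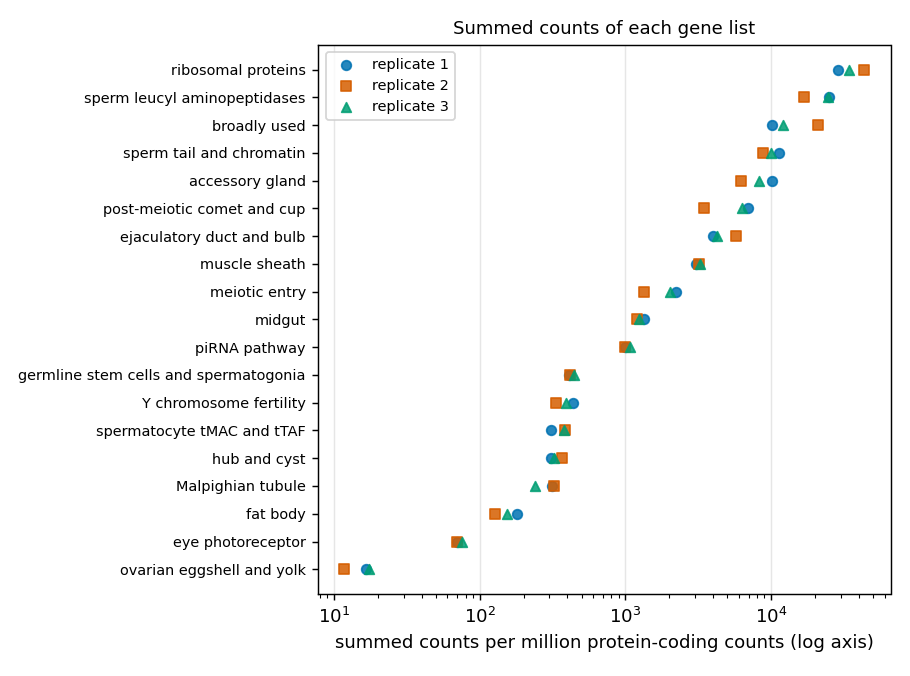
Summed CPM (log axis) of the 19 gene lists, with 1 point per wild type library. Ribosomal proteins lead with 28880.5 to 43703, and ovarian eggshell and yolk genes are last with 11.8 to 17.5.

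Genes used in most cells also took large shares. The 92 ribosomal protein genes summed to 28880.5, 43703 and 33961 CPM, with RpL3 (1081 CPM), RpLP0 (1022 CPM) and RpLP2 (573, 1368 and 614 CPM) at the head. Of 9 broadly used genes, Ef1alpha48D held most of the sum, alphaTub84B had 1870.2, 2142 and 2058 CPM, Act5C 1290.0, 2061 and 1143 CPM, and Tbp, which encodes the TATA-binding protein, 55, 32 and 55 counts. The ribosomal sum was highest in replicate 2.

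In *Drosophila*, many housekeeping genes have a second copy used in the testis. A list of 24 pairs, each with a member listed as the testis copy, was compared within each library. Whether each listed member is a testis copy was not tested. Per kilobase of gene span, the testis copy was higher than the broad copy in 3 of 3 libraries for 12 pairs, the broad copy for 6 pairs, and 3 pairs were mixed. By counts, the testis copy was higher for 12 pairs and the broad copy for 11, and 10 pairs had the testis copy higher on both scales. The remaining 3 pairs had no ratio per kilobase, as rye was not matched and the pairs of eIF4G2 with eIF4G and Hsp60B with Hsp60 had no span.

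The pairs with the testis copy ahead covered the cytoskeleton, metabolism and the cell cycle. The testis beta-tubulin gene betaTub85D had 15833, 7272 and 16625 counts, against 2521, 3242 and 3239 for betaTub56D, a ratio of 10.3 ± 4.7 per kilobase of span (SD, n = 3). The glycolytic gene Pglym87 exceeded Pglym78 by 12.9 ± 4.3, and the cytochrome c gene Cyt-c-d exceeded Cyt-c-p by 6.26 ± 1.6. By counts the ratios for betaTub85D, Pglym87 and Cyt-c-d were 4.55, 8.45 and 8.64. Spans include introns, so a ratio per kilobase also depends on intron length. The Cdc25 phosphatase gene twe, which acts at meiosis, had 654, 345 and 761 counts, and its mitotic counterpart stg 20, 9 and 24. Of the proteasome pairs, Pros28.1B over Pros28.1 (2.45 per kilobase) and Prosalpha6T over Pros35 (2.65) favoured the testis copy. CG7813 over ATPsyn-d (1.84), eIF4E-3 over eIF-4E (2.45), can over Taf5 (2.81) and sa over Taf8 (1.91) did so as well. By counts the ratio was 3.67 for CG7813 and 1.16 for eIF4E-3. By counts, where no span was at hand, eIF4G2 exceeded eIF4G by 4.25 and Hsp60B exceeded Hsp60 by 2.24.

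Ribosomal and elongation factor copies went the other way. RpS5a exceeded RpS5b by 4.80 per kilobase of span, RpS19a exceeded RpS19b by 5.13, and RpS10b exceeded RpS10a by 2.68. By counts these ratios were 19.8, 8.68 and 7.88. Ef1alpha48D exceeded Ef1alpha100E by the most, with 43600, 83222 and 62026 counts against 231, 215 and 274. Ef1alpha100E was only listed as the testis copy, and its use in the testis was not tested. Pros29 over Prosalpha3T (4.65) and Taf6 over mia (2.73) favoured the broad copy as well. Per kilobase of span the order was mixed for RpL22-like and RpL22, Pros28.1A and Pros28.1, and nht and Taf4, and by counts the broad copy was higher in 3 of 3 libraries for each, by 2.67, 1.78 and 9.51. For fzo and Marf (1.503) and aly and mip130 (3.42) the testis copy was higher per kilobase of span and lower by counts in every library.

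The spread among the 3 libraries was estimated after TMM scaling, which sets libraries on a common scale by the bulk of their genes. Over 11057 rows with a mean of at least 1 CPM on this scale, the median CV was 17.99%, with quartiles of 10.6% and 27.7%, and the common biological coefficient of variation from edgeR was 0.242. Without replicate 2 these values were 8.46% and 0.133. Median CVs were 17.7% for protein-coding genes, 24.8% for noncoding rows and 18.5% for TE rows. Across 10338 protein-coding genes of these libraries, Spearman's correlation was 0.984 between replicates 1 and 3, 0.966 between 2 and 3, and 0.949 between 1 and 2, as a description across genes, which are not independent.

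Replicate 2 differed from the others in many genes. Of 10338 protein-coding genes, 556 were at least 2-fold away from the mean of the other libraries in replicate 2, with 332 above and 224 below. The same count was 200 for replicate 1 and 71 for replicate 3. Of the 100 rows with the highest CV, 87 were highest in replicate 2, 13 in replicate 1 and 0 in replicate 3. These 100 rows were drawn from 5649 with a mean of at least 10 CPM after TMM scaling. Over the 10338 protein-coding genes, replicate 2 was the highest library for 44.2%. A CV of 3 values can rise further with 1 high library than with 1 low library, so this ranking favours rows high in 1 library. No label tells replicate 2 apart from the others, and its total counts lay between theirs.

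Genes of late spermatogenesis were among those lower in replicate 2. All 19 comet and cup genes and all 9 sperm leucyl aminopeptidases were lowest in that library, with median log2 differences from the mean of the other libraries of -0.70 and -0.61. Of the sperm tail and chromatin genes 14 of 17 were lowest there, of the accessory gland genes 11 of 13, and of the midgut genes 8 of 12. Ribosomal protein genes were highest in replicate 2 for 64 of 92, with a median log2 difference of 0.34. Over all 10338 protein-coding genes, replicate 2 was the highest library for 4568 and the lowest for 4172. The early germline list had a median log2 difference of -0.11. The muscle list had one of 0.10, with 8 of 11 genes highest in replicate 2, and the hub and cyst list one of 0.11, with 6 of 9 highest there. Without replicate 2 the summed levels of the aminopeptidases, the accessory gland genes and the ribosomal protein genes were 24754, 9165 and 31421 CPM.

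**Figure D5:**
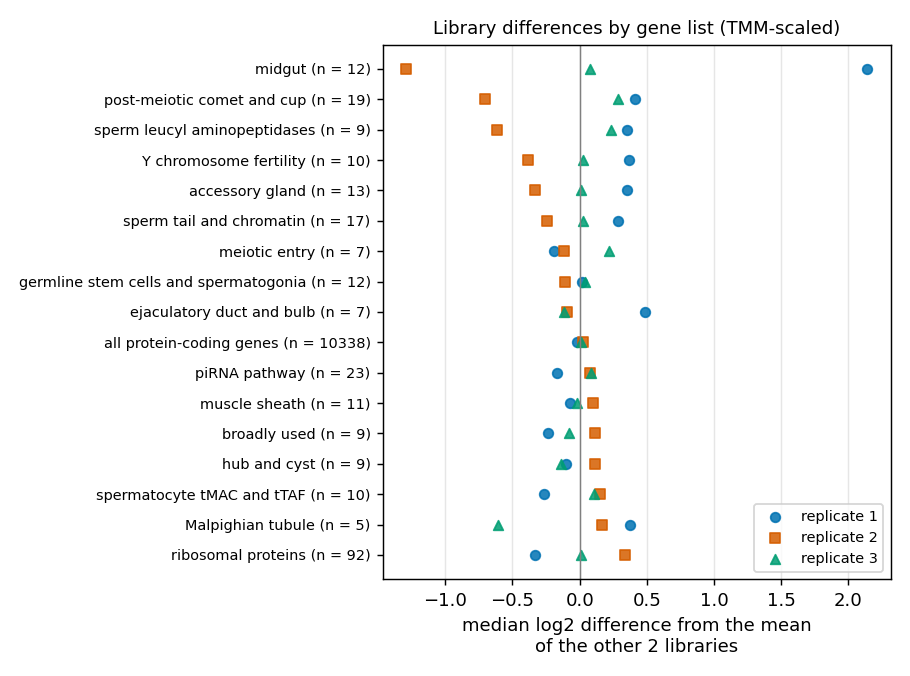
Median log2 difference of each library from the mean of the other 2 libraries, for lists with at least 5 genes past the filter and for all protein-coding genes (n is the number of genes). Replicate 2 lies at -1.29 for midgut, -0.70 for comet and cup genes and 0.34 for ribosomal proteins, and all protein-coding genes lie near 0.

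Genes on different chromosomes were not alike in replicate 2. On the X chromosome the median log2 difference was 0.15 over 1627 genes, of which 1012 (62.2%) were above the mean of the other libraries. Over all 10338 protein-coding genes, 5397 were above that mean. The medians for 2L, 2R, 3L and 3R were -0.03, 0.00, 0.00 and 0.05, with 47.3%, 50.7%, 50.2% and 53.3% of genes above. On chromosome 4 the median was -0.21 over 67 genes, of which 16 (23.9%) were above the mean of the other libraries, and on the Y chromosome it was -0.25 over 15 genes. The X chromosome held 12.3%, 13.5% and 12.1% of protein-coding counts in replicates 1, 2 and 3.

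Among rows with a mean of at least 10 CPM after TMM scaling, CG2839 had the highest CV (145%), with 1330, 12640 and 826 counts. FB was next (137%), followed by CR40728 with 79388, 434182 and 25589 counts (135%). CR40640 (116%) and CR41544 (116%), which had similar counts, and unc79 (97.1%), which encodes a part of a sodium channel complex, were also highest in replicate 2. CG31343 (123%), CG10472 (114%), alphaTry (107%) and the mucin gene Muc68E (92.8%) were highest in replicate 1. The 5 rows with the lowest CV were CG1407, alphaTub84D, CG17746, sea and CG7656, with CVs of 0.176% to 0.578%. Of these, alphaTub84D, an alpha-tubulin gene, had 3044, 2249 and 3351 counts, and sea, a mitochondrial citrate carrier gene, 380, 278 and 415.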

How the data were processed

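The authors aligned reads of rRNA-depleted, stranded total RNA to dm3 with STAR 2.6.0a (version per the labels), allowing multiple alignments, and assigned them to genes and TEs with TEtranscripts, which shares multi-mapped reads between features. The labels call the deposited table normalized, but it holds only whole numbers that add up to a different total in each library, so each deposited value was used as a count. The strand setting of the counting is not given in the sources used here, so overlapping genes are uncertain. The small RNA tables and the 3 *klp10A RNAi* mRNA libraries were not used here.

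Gene class, chromosome and span came from a RefSeq table of Release 6, whose build differs from dm3, so no coordinates are given. Of the gene rows, 11814 matched by symbol, 3164 by synonym, 147 ambiguously and 115 not at all. Levels per kilobase of exon were planned for genes, lists and concentration, but only spans with introns were at hand. Shares of protein-coding counts were therefore used, with counts per kilobase of span as a second scale (and as the main scale for the paralog pairs). TE classes were assigned by family from general knowledge. Rows within 0.1% or 1 count of each other in every library, with a mean of at least 1000 counts, formed 22 pairs among 1729 rows, and 120 pairs among 7837 rows at a first minimum of 100 counts.

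Spread was computed with edgeR 4.0.16 in R 4.3.3 (TMM, intercept-only dispersion) and tested on simulated data. Differences of a library from the others used log2(CPM + 0.5). Alternatives were DESeq2 1.42.0 size factors, total counts, other filters and totals, and leaving out each library in turn. One group was described, so no hypothesis test was run. With 3 libraries, described as biological replicates, the precision is that of 3 values.

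The text names the 20 leading protein-coding genes per kilobase and, in addition, by counts, the 10 leading noncoding and TE rows, the 10 highest and 5 lowest CVs, up to 3 leading members and the members near 0 of each list, both members of each pair, and Klp10A. Further genes were named once their values were known. The members and lists were chosen with earlier results of these data known. The views of replicate 2, of chromosomes, of near-identical rows and of TE classes, and the ratio of the accessory gland to the sperm tail list, were added with the values in view.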

Additional observations from a re-analysis of the deposited data

How the results depend on the processing

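No paired analysis was possible because a single group was described. Leaving the 3 most abundant noncoding rows out of the total moved the protein-coding share from 33.7% to 44.3% and the TE share from 12.2% to 16.1%, both by the smaller total alone. The 10 leading noncoding rows held 49.7% of counts, and the 7 that remained held 33.7% of the smaller total. With at least 10 CPM of all counts in place of 1 CPM, 4579 protein-coding genes were detected in place of 9824. Per kilobase of gene span, a scale added after seeing the data, 8 of the 20 leading genes were kept and 322 genes held 50% of the level, in place of 689 for the mean over libraries.

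Leaving out each library in turn gave a median CV of 8.46% to 20.5% and a common biological coefficient of variation of 0.133 to 0.301, both lowest without replicate 2. The protein-coding share then ranged from 29.95% to 36.7%, the TE share from 11.8% to 13.02%, and the detected genes from 9842 to 10221. Leaving out a library of 3 cannot move a mean by 1 SD between them, so the small shifts of shares and list sums under that setting are no sign of stability. Of the alternatives that kept all libraries, 15 others moved a value by less than 1 SD, or a count or spread by less than 1.5 times. Among them, the TE share from rows ending in LTR could not move, since all TE rows end so. With total counts in place of TMM scaling, the median CV was 25.8% and the common biological coefficient of variation 0.301. Motifs in promoters of abundant genes had been planned and were not run, since promoter sequences were not used here. Depth limits the genes near the floor of 3 counts.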
